A study of Mus musculus with 563 samples.

Results

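Lysosome genes were followed in single hematopoietic stem cells (HSCs) from the bone marrow of young and old mice. The set holds 34 named genes in 5 classes, with 9 cathepsins, 7 glycosidases, 6 other luminal enzymes and cofactors, 7 membrane proteins and 5 proton pump genes. Members were taken by name from the count tables, with earlier results of these data known. All 34 were found among 46041 nuclear gene entries. A level filter, a mean of at least 10 CPM (reads of a gene in 1000000 nuclear gene reads) and a read in at least 10% of cells, was passed by 10724 genes, 32 of them members. The cathepsin gene Ctss and the galactosidase gene Gla did not pass it, and counts below refer to the other 32.

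Each deposited sample is 1 cell, placed in a plate well and read by a form of Smart-seq2, a method that covers whole transcripts and carries no molecular identifiers. Every cell, young or old, came from mice of the genotype Gfp-Lc3, whose reporter joins green fluorescent protein to LC3, a protein of autophagosome membranes, and every cell is labelled as taken at steady state. Old cells are labelled LO, MID or HI. The submitters state that surface markers and the GFP-LC3 level were recorded for the sorted cells, but no label says which measurement LO, MID and HI rank, and none gives the age in months or names an animal.

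Lysosomes are acidic compartments in which proteins, sugars, lipids and whole organelles are broken down. Cathepsins cut proteins, glycosidases remove sugars from glycolipids and glycoproteins, saposins and lipases handle lipids, and a proton pump (the V-ATPase) keeps the lumen acid. Autophagosomes marked by LC3 deliver their content by fusing with lysosomes, and autophagy is known to be needed for the upkeep of HSCs. Many lysosome genes carry an E-box in their promoters that is bound by TFEB and its relatives TFE3 and MITF, and inherited loss of single members causes lysosomal storage diseases.

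Promoter windows were searched for the E-box core CACGTG, because it is the letters through which the members are known to share a regulator. The 250 bases before the RefSeq start (GRCm38.p6) were available for 29 of the 34 members and for 20559 genes in all. The core was present in 9 of the 29 (31.03%), namely Ctsd, Ctsf, Ctsl, Gaa, Gla, Glb1, Lamp1, Mcoln1 and Atp6v1a, and in 6.41% of all promoters. The palindrome TCACGTGA, which contains the core, was found in 4 of 29 (13.8%) against 0.953% of all promoters. Both words read the same on either strand. The windows of 4 of the 9 are shown 5′ to 3′ on the strand of the gene, with each core in capitals. They hold only bases before both the RefSeq and the GENCODE start. The 4 shown have the highest differences of old against young cells among the 9 (values below), so their shared direction follows from the choice. By mean log2 difference, 5443 of 10724 genes were higher in old cells. The other members with a core differed in log2 by 0.32 (Ctsl), 0.03 (Ctsf), 0.01 (Glb1) and -0.04 (Atp6v1a), and Gla did not pass the level filter. A relation between the core and these differences was not tested. Lamp1 lies at chr8:13159070-13159160 (plus strand), Gaa at chr11:119267793-119267858 (plus), Ctsd at chr7:142388039-142388077 (minus) and Mcoln1 at chr8:3500418-3500456 (plus).
Lamp1: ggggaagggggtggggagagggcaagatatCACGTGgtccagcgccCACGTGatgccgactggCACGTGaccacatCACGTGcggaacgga
Gaa: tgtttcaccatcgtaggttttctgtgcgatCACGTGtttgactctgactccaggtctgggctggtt
Ctsd: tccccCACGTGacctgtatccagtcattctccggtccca
Mcoln1: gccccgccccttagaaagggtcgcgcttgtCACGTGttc
Lamp1 held 4 cores, the first of them 61 bases before the start, and Gaa held 1 core, 140 bases before its start. Ctsd and Mcoln1 each held a second core outside the stretch shown, 98 and 45 bases before the RefSeq start. A match is a string of letters, and no binding was measured here.

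Of 563 cells, 533 were kept, 61 to 71 in each combination of group and count table. Adding up the reads of all kept cells by group, separately in the 2 tables, gave 8 sums of 18580222 to 25382151 nuclear gene reads. All 14 genes of an HSC marker list passed the level filter. Of 15 macrophage and monocyte markers, 10 had a mean under 1 CPM, among them Csf1r and Adgre1, and the summed list (405.7 and 433 CPM in young, 376 to 482 in old cells) was mostly Lyz2. Neutrophil markers stayed under 1 CPM for 7 of 10 genes. The megakaryocyte and platelet list summed to 440.4 and 514 CPM in young and 1274 to 1685 CPM in old cells, and the MHC class II list to 607 and 683 against 1191 to 2187 CPM. Cells with reads in at least 8 of 32 G2 and M phase genes, called cycling below, made up 23.8% and 32.4% of young, 7.69% and 12.7% of LO, 11.8% and 12.1% of MID and 29.4% and 54.1% of HI cells (the first and the second table). Transgene reads (eGFP) stood at 392 and 405 CPM in LO and at 739 to 1094 CPM in the other groups. In the second table all 71 young cells held 20 or more Xist reads and 0 held 20 reads of Y-linked genes. In every other sum 57 to 62 cells held 20 or more Y-linked reads, and 0 to 4 held 20 or more Xist reads. Young cells of the second table thus differ from most others in sex.

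Members ranged from some of the most abundant to some of the rarest transcripts that passed or neared the filter. Compared per kilobase of exon, Ctsd (cathepsin D, an aspartic protease) stood highest at a mean of 250.02 CPM per kilobase over the 8 sums, above 99.2% of the genes that passed the filter. Psap, the precursor of the saposins that help enzymes reach lipids, followed at 207, then the membrane glycoprotein Lamp1 at 117.1, Ctsz at 111.7 and Hexa, a hexosaminidase subunit, at 98.4 CPM per kilobase. The ranges of Lamp1 (88.7 to 139.2) and Ctsz (82.3 to 140.6) overlap, so their order is not fixed by these sums. Neu1, a sialidase, lay near the middle of all genes at 11.5 CPM per kilobase (51.7% of genes lower). The lowest members were the cholesterol exporter Npc1 at 3.58 and Gla at 2.30 CPM per kilobase.

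**Figure D1:**
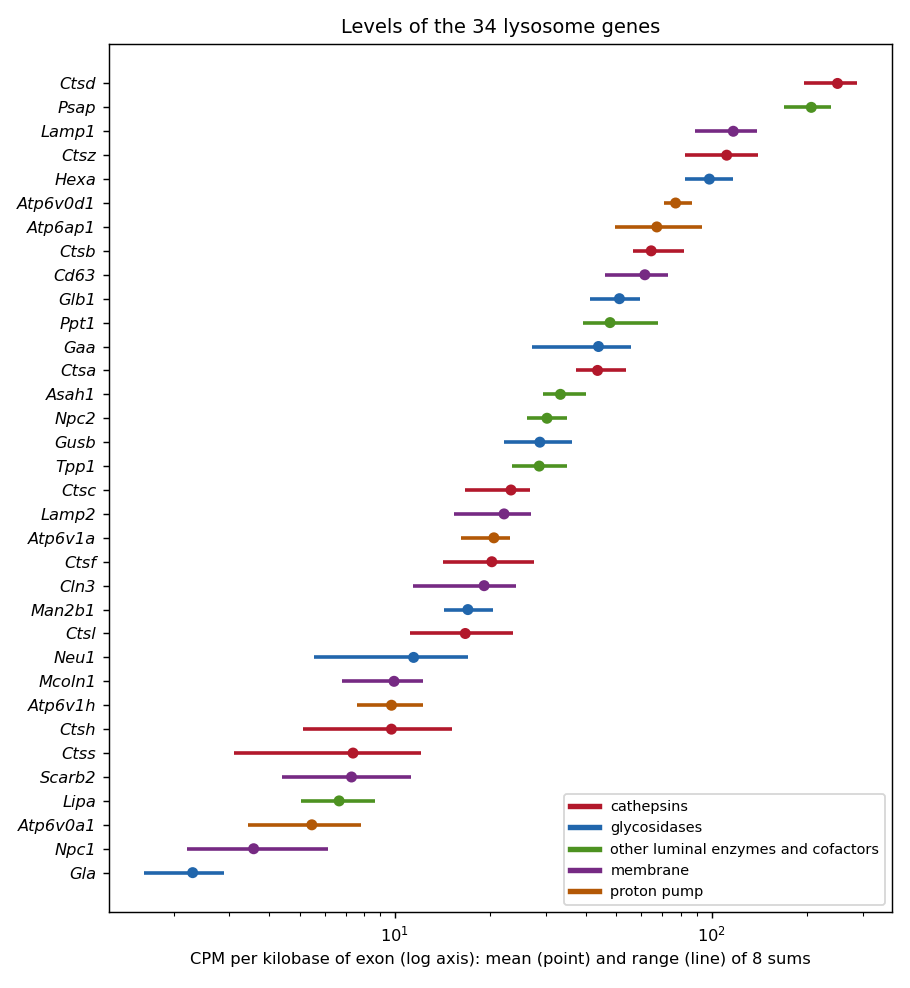
Level of each of the 34 lysosome genes in CPM per kilobase of exon (log axis), with the point at the mean and the line spanning the lowest and highest of the 8 sums. Ctsd (250.02) and Psap (207) stand above the other genes, and Npc1 (3.58) and Gla (2.30) stand lowest.

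Detection in single cells followed the level in part. The tetraspanin Cd63 had a read in 99.4% of the 533 cells, Psap in 97.7% and Ctsd in 96.2%. Ctsh, an aminopeptidase-like cathepsin, had a read in 36.2% of cells, Neu1 in 36.6%, Gla in 14.3% and Ctss in 8.82%. The rarely detected members were concentrated in few cells, with 69.02% of Ctsh reads and 70.4% of Neu1 reads in the 10% of cells that held most, against 25.7% of Cd63 reads. After thinning to 100000 reads per cell, a cell had reads in a median of 23 members in young and 24 in each old group, with 8 to 33 over all 501 cells of sufficient depth.

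Old against young cells showed no member past a 1.5-fold rule, for which the log2 difference of CPM plus 1 must reach 0.58 in both tables with 1 sign. The rule was met in the higher direction by 0 of 32 members, where 3.65% of all genes met it, and in the lower direction by 0 of 32, where 3.01% did. No label names an animal, so the replicates behind a group are not known, each group was treated as 1 sample and groups were compared without a test. The young sums hold cells of both sexes and thus of more than 1 animal, and the spread between the tables is given as both values. The members' median log2 difference was 0.04 (0.11 in the first and -0.00 in the second table), beside 0.01 over all genes. By sign alone, 13 members were higher in both tables (background 29.8%) and 6 lower (background 28.8%), and 26 of 32 stayed within 1.5-fold in both tables, as did 67.6% of all genes. The class medians were 0.35 for membrane proteins, 0.23 for cathepsins, 0.05 for proton pump genes, 0.00 for glycosidases and -0.13 for other luminal enzymes and cofactors.

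**Figure D2:**
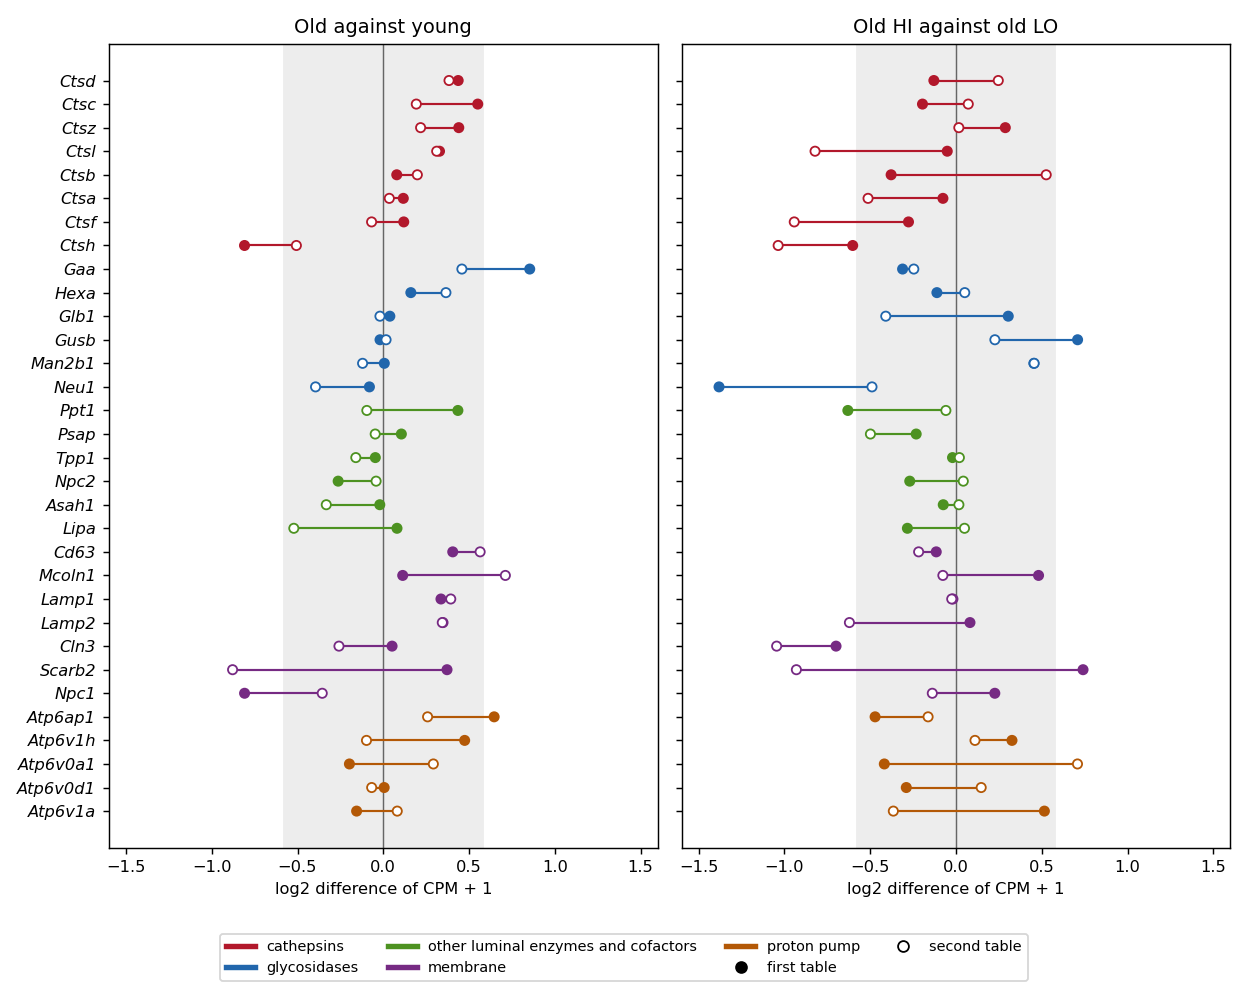
Log2 difference of CPM plus 1 for the 32 members that passed the level filter, old against young (left) and HI against LO (right), with filled points for the first and open points for the second table and a grey band marking differences under 0.58. No member leaves the band on the same side in both tables on the left, and Ctsh and Cln3 do so on the right, in the lower direction.

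Among cathepsins, 6 of 8 were higher in old cells in both tables (background 29.8%), all short of the rule. Without cells with markers of other lineages, Ctsa (-0.22 and -0.002), Ctsb (-0.13 and 0.26) and Ctsl (-0.24 and 0.33) were no longer higher in both tables. Ctsc then stood at 0.16 (0.01 and 0.30). Ctsd (ENSMUSG00000007891, chr7:142375911-142388038, minus strand, GRCm38) read 481, 677, 662 and 618 CPM in young, LO, MID and HI cells of the first table, and 459, 560.4, 579 and 665 CPM in the same groups of the second. All 6 old values lay above both young values, a log2 difference of 0.41 (0.44 and 0.38). Ctsc, which activates serine proteases by trimming them, showed the same separation (chosen after its values were seen), with 96.4 and 125.7 CPM in young and 126.7 to 155 CPM in old cells. Ctsz, a carboxypeptidase, read 118.7, 139.98, 175 and 171 CPM in young, LO, MID and HI cells of the first table and 151, 163, 203 and 165 CPM in the second. Its difference was 0.33, and the young value of the second table exceeded the LO value of the first.

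Ctsh (ENSMUSG00000032359, chr9:90054152-90076089, plus strand) was the member with the lowest difference, -0.66 (-0.81 and -0.51). It read 67.9, 53.4, 30.2 and 34.8 CPM in young, LO, MID and HI cells of the first table and 51.5, 48.3, 41.7 and 23.02 CPM in the second. The first LO value lay above the second young value, so the groups overlap. Without cycling cells the difference of Ctsh was -0.40 (-0.88 and 0.08), and without cells with markers of other lineages it was -1.22 (-1.74 and -0.71), which meets the rule. Ctsb, Ctsa and Ctsf differed by 0.14, 0.08 and 0.03, and Ctsl, an endopeptidase, by 0.32. Ctsd shares 808 of its 2351 exon bases with the gene model Gm49369 on the same strand, and Ctsl, Ctsa and Ctsb share exon bases with neighbouring genes, so how reads of these stretches were assigned is uncertain.

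Glycosidases split around a single gene. Gaa, the acid alpha-glucosidase that breaks down glycogen, had the highest difference of all members, 0.66 (0.85 and 0.46). It lies at chr11:119267887-119285454 (ENSMUSG00000025579, plus strand). It read 129.2, 245, 266 and 197 CPM in young, LO, MID and HI cells of the first table and 164, 236, 245 and 199 CPM in the second. All old values exceeded both young values, and only the second table kept Gaa short of the 1.5-fold rule; with each cell given equal weight Gaa met it. Without the 230 cells that held reads of 3 or more markers from the same list of another lineage, the difference of Gaa was 0.17 (-0.02 and 0.36). Any read at full depth counted, and these lists hold genes read in every sum, such as Car2 (mean 1541 CPM) and Lyz2 (392 CPM). The flag covered 22.5% to 57.4% of the cells of a sum, so it differs between groups and does not show that a cell is of another lineage.

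The other glycosidases differed less. Hexa read 176 and 164 CPM in young and 179 to 234 CPM in old cells, a difference of 0.26 (chosen after its values were seen). Gusb, the beta-glucuronidase, read 128.7, 100.4, 123.8 and 165 CPM in young, LO, MID and HI cells of the first table and 130.1, 126.4, 121.7 and 148 CPM in the second, a difference of -0.00. Young cells lay inside the old range for Gusb. Neu1 was lowest of the class at -0.24 (-0.08 and -0.39), and Glb1 and Man2b1 lay at 0.01 and -0.06.

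None of the 6 other luminal enzymes and cofactors was higher in old cells in both tables, and 3 were lower in both (Asah1, Tpp1 and Npc2). Psap read 513, 610.1, 532 and 519 CPM in young, LO, MID and HI cells of the first table and 599, 655, 643 and 463 CPM in the second, a difference of 0.03. Ppt1, which removes fatty acids from proteins, was highest at 0.17, with 143.8, 248, 186 and 160.1 CPM in the first and 175, 165, 168 and 159 CPM in the second table. Its tables point in opposite directions (0.44 and -0.10). Lipa, the lysosomal acid lipase, was lowest at -0.22, with 47.1, 58.6, 43.9 and 47.97 CPM in the first and 53.2, 34.3, 40.6 and 35.6 CPM in the second table, again with opposite signs. Without cycling cells Lipa stood at 0.16 and without cells with other lineage markers at -0.56, and Ppt1 at 0.22 and -0.10, so neither gene kept its sign.

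Membrane proteins had the highest class median. Cd63 (ENSMUSG00000025351, chr10:128900989-128912822, plus strand) read 179, 245, 241 and 226 CPM in young, LO, MID and HI cells of the first table and 169, 268, 255 and 230.4 CPM in the second. Every old value lay above both young values, and the difference was 0.48 (0.40 and 0.56). Lamp1 read 237, 306, 292 and 302 CPM in the first and 277, 372, 355 and 366 CPM in the second table, a difference of 0.36 (0.34 and 0.39). Each young value of Lamp1 lay below all 6 old values, and the second table was higher than the first in every group. Cd63 is also a marker of platelet granules, and the summed megakaryocyte and platelet list was higher in old cells. That rise was mostly Vwf, Itgb3 and Selp, and Itga2b and Cd9 were also higher in every old sum. Gp9 (52.2 and 75.1 CPM in young, 60.9 to 75.1 CPM in old cells) and Pf4 overlapped, and Ppbp was lower in old cells. The part of platelet transcripts in the value of Cd63 was not tested.

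Lamp2, the partner of Lamp1 in the lysosome membrane and likewise X-linked with Atp6ap1, differed by 0.35 (0.35 and 0.34), but its HI value of the second table, 146 CPM, lay below both young values (195 and 153 CPM). Mcoln1, a calcium channel of the lysosome, differed by 0.41, with 68.6, 65.9, 67.2 and 92.3 CPM in the first and 51.4, 83.3, 92.8 and 78.9 CPM in the second table. Its difference came mostly from the second table (0.11 and 0.71). Npc1 was lowest of the class at -0.58 (-0.81 and -0.36), with 69.5, 36.5, 38.7 and 42.9 CPM in young, LO, MID and HI cells of the first and 40.6, 37.1, 24.96 and 33.6 CPM in the second table. The first young value of Npc1 stood apart and the second lay inside the old range. Scarb2, the receptor that carries glucocerebrosidase to lysosomes, differed by 0.37 in the first and -0.88 in the second table.

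Of the proton pump genes, Atp6ap1, an accessory subunit on the X chromosome, was highest at 0.45 (0.65 and 0.26). It read 150.3, 283, 228 and 204 CPM in young, LO, MID and HI cells of the first table and 166, 216, 186 and 193 CPM in the second. Both young values lay below all old values. The young cells of the second table differ in sex from most old cells, and the part of sex in this value was not tested. Atp6v1a, the catalytic subunit, was lowest at -0.04, with 132.6, 97.6, 123.3 and 139.9 CPM in the first and 119.1, 140.04, 131.9 and 108.5 CPM in the second table. Atp6v0d1, Atp6v0a1 and Atp6v1h lay between -0.03 and 0.19, and only Atp6ap1 of the 5 was higher in both tables (background 29.8%).

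**Figure D3:**
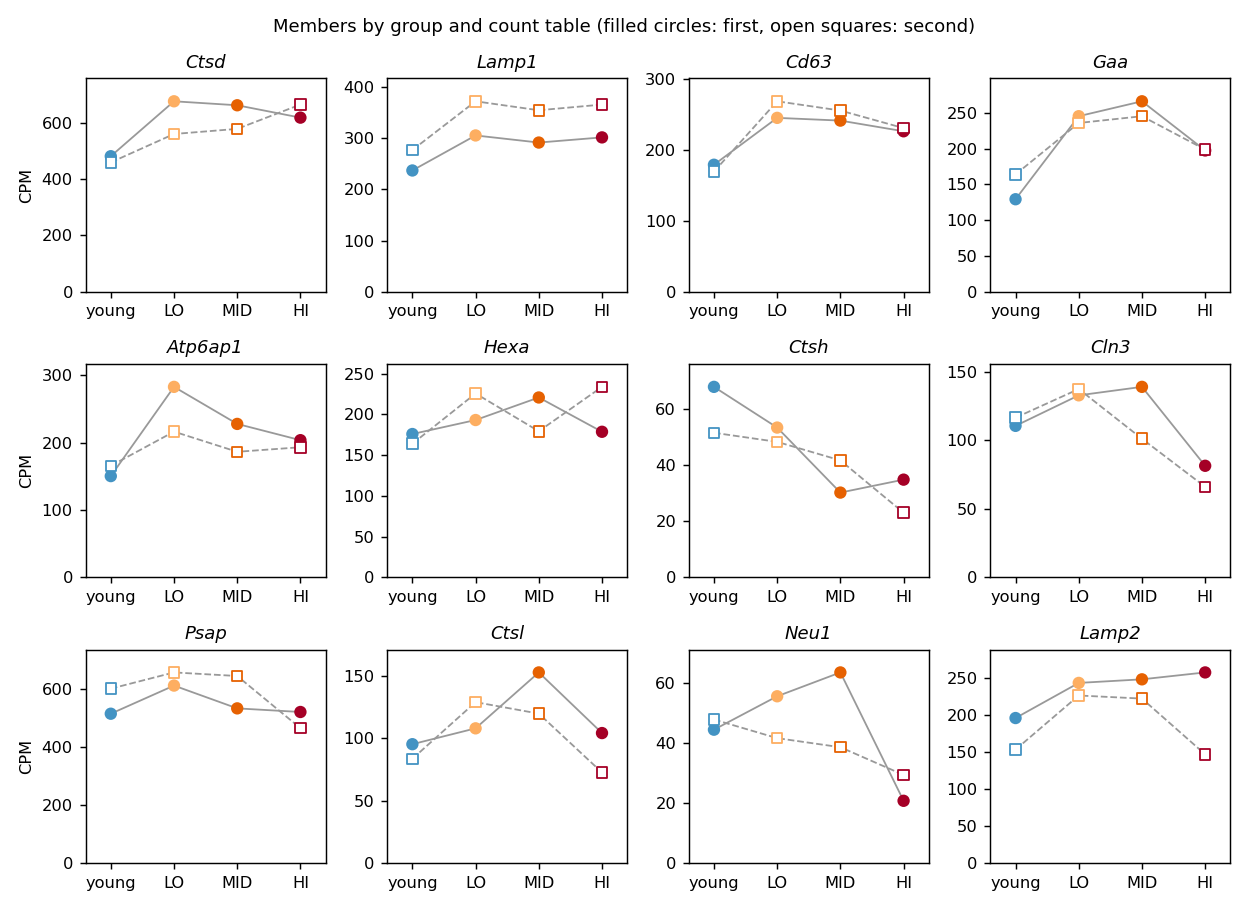
CPM of 12 members in young, LO, MID and HI cells, with filled circles for the first and open squares for the second table and axes starting at 0. In the panels of Ctsd, Lamp1, Cd63, Gaa, Atp6ap1 and Hexa every old point lies above both young points, and in the panels of Ctsh, Cln3, Psap, Ctsl and Neu1 both HI points lie below both LO points.

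Counted by separation alone, 7 of 32 members (Ctsc, Ctsd, Gaa, Hexa, Lamp1, Cd63 and Atp6ap1) had all 6 old sums above both young sums, a pattern met by 7.56% of all genes. Among genes with a mean of at least 100 CPM it was met by 7 of 24 members and 11% of genes. The opposite pattern was met by 0 of 32 members and 5.83% of genes (6.57% of those with at least 100 CPM). This count was chosen after the values were seen. It came to 5 members without cycling cells (Ctsd, Gaa, Hexa, Cd63 and Atp6ap1; 7.55% of genes) and to 1, Ctsd, without the 230 cells with markers of other lineages (6.55% of genes), where 3 members (Ctsh, Lipa and Npc2) showed the opposite pattern (6.09%).

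The share of all nuclear gene reads that fell in the 34 genes was also taken in each cell. It had a median of 0.503% in young cells (lowest 0.157%, highest 0.920%), 0.568% in LO cells (0.188% to 0.942%), 0.547% in MID cells (0.153% to 0.923%) and 0.537% in HI cells (0.200% to 0.801%). Distributions overlapped over nearly their whole width. In summed reads the share was taken from CPM scaled with TMM factors, unlike the unscaled share per cell. It was 0.487% and 0.510% in young and 0.535% to 0.582% in old cells, so that all 6 old sums exceeded both young sums. The same held for cathepsins, with 0.151% and 0.156% in young and 0.168% to 0.188% in old cells, and for membrane genes (0.0895% and 0.0878% against 0.0949% to 0.118%). It held for glycosidases (0.0784% and 0.0800% against 0.0831% to 0.0985%) and proton pump genes (0.0540% and 0.0550% against 0.0577% to 0.0682%) as well. The other luminal enzymes and cofactors overlapped, with 0.114% and 0.131% in young and 0.107% to 0.134% in old cells. A summed share is weighted toward the abundant genes of a class. Of the glycosidases only Gaa and Hexa were higher in old cells in both tables, and of the pump genes only Atp6ap1 (background 29.8%). How often other gene sets show such a separation of summed shares was not counted.

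HI against LO cells were compared as the groups of old cells whose names lie furthest apart. Ctsh and Cln3 were lower in HI cells by the 1.5-fold rule, 2 of 32 members where 3.66% of all genes were, and 0 of 32 were higher, where 4.49% of genes were. The median of the members was -0.07 (all genes -0.00), with 12 lower in both tables (background 30.9%) and 4 higher (background 31.1%). Class medians lay between -0.18 for cathepsins and 0.07 for proton pump genes.

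Cln3 (ENSMUSG00000030720, chr7:126571207-126585817, minus strand), a lysosomal membrane protein lost in a childhood neurodegenerative storage disease, had the lowest difference of the membrane class. It read 132.8, 138.9 and 81.4 CPM in LO, MID and HI cells of the first table and 137.4, 101.1 and 66.02 CPM in the second, beside 110.5 and 116.5 CPM in young cells. Both HI values lay below all 6 other values, and the difference from LO was -0.87 (-0.70 and -1.05). Cln3 held 5245 reads of LO cells over both tables (95% Poisson interval 5104 to 5389) and 3678 reads of HI cells (3560 to 3799), intervals that cover the counting of reads only. Reads at thinned depth were found in 81.3% of LO (exact binomial interval over cells 73.3% to 87.8%) and 69.9% of HI cells (60.995% to 77.9%). Without cycling cells the difference was -0.73 (-0.45 and -1.01), which misses the rule through the first table, as did the difference without cells with other lineage markers, -0.90 (-0.56 and -1.25). Cln3 shares 442 of 5781 exon bases with Apobr on the opposite strand.

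Ctsh was lower by -0.82 (-0.60 and -1.04), with the values given above. Both HI values lay below both LO values, but the MID value of the first table, 30.2 CPM, lay below the HI value of that table. Without cycling cells its difference was -0.02, and without cells holding other lineage markers it was -1.52. Reads at thinned depth were found in 34.1% of LO (25.8% to 43.2%) and 28.5% of HI cells (20.7% to 37.3%) over both tables, with intervals that take cells as independent draws and say nothing of animals.

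The remaining extremes of the classes did not meet the rule. Neu1 had the lowest difference of all members at -0.94 (-1.38 and -0.49), with 55.6, 63.6 and 20.7 CPM in LO, MID and HI cells of the first table, 41.7, 38.6 and 29.4 CPM in the second, and 44.5 and 47.9 CPM in young cells. Both HI values were the lowest of the 8, and a single cell held 39.4% of the reads of the MID cells in the second table. Without cycling cells the difference of Neu1 was -0.41 (-1.04 and 0.23), and without cells with markers of other lineages it was -0.24 (0.41 and -0.88), so in each case 1 table pointed the other way. Gusb was highest at 0.47 (0.71 and 0.23), and Man2b1 was close to it at 0.45. Psap was lowest of the luminal group at -0.37 (-0.23 and -0.50), and Tpp1, a tripeptidyl peptidase, was highest at -0.00, with 133.2, 133.9, 121.4 and 132.003 CPM in young, LO, MID and HI cells of the first and 178, 149, 181 and 151 CPM in the second table. Ctsz (0.15), Mcoln1 (0.20) and Atp6v1h (0.22) were the highest of their classes and Atp6ap1 (-0.32) the lowest of the pump genes. Atp6v1h, a regulatory subunit of the pump, read 73.9, 95.02, 96.6 and 119.4 CPM in the first and 98.7, 89.2, 90.9 and 96.4 CPM in the second table.

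By separation, 11 of 32 members (Ctsa, Ctsf, Ctsh, Ctsl, Gaa, Neu1, Psap, Ppt1, Cd63, Cln3 and Atp6ap1) had both HI sums below both LO sums, where 21.7% of genes did, and 4 (Ctsz, Gusb, Man2b1 and Atp6v1h) had both above, where 23.1% did. Without cycling cells the first count was 4 of 32 (Psap, Cln3, Atp6v0d1 and Atp6ap1), where 17.7% of genes did. These shares of all genes were not matched to the members for level. Among members with a mean of at least 100 CPM, 9 of 24 had both HI sums below both LO sums and 3 of 24 had both above. The groups differ in cycling cells, and the G2 and M phase list summed to 1025 and 719.9 CPM in LO and 2174 and 5569 CPM in HI cells.

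MID against LO cells showed 0 of 32 members higher (background 1.48%) and 0 lower (background 1.79%), with a median of -0.01. An order of LO above MID above HI in both tables was found for Ctsf, Psap and Cd63, 3 of 32 members where 5.1% of genes had it, and the reverse order for Atp6v1h, 1 of 32 where 5.93% had it. HI against MID cells gave Cln3 as the only member past the rule, lower in HI by -0.69 (background 2.39%), and 0 of 32 higher (3.93%).

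Each old group was also set against the same young cells, so these 3 comparisons share their young sums. LO cells had 0 of 32 members higher and 0 lower (backgrounds 5.08% and 4.33%). MID cells had 0 higher and 1 lower, Npc1 (4.05% and 3.85%). HI cells had 0 higher and 2 lower, Ctsh at -1.04 and Neu1 (4.72% and 3.79%).

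Within groups, cycling cells gave a smaller share of their reads to the lysosome genes. The summed share had a median of 0.481% in cycling cells and 0.564% in the 412 other cells, and the gap was widest in HI cells, at 0.472% in 53 cycling and 0.594% in 76 other cells. In young cells the medians were 0.491% and 0.506%, in LO cells 0.532% and 0.575%, and in MID cells 0.464% and 0.571%. Among cells that were not cycling, HI cells thus had the highest median and young cells the lowest, with groups overlapping cell by cell.

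**Figure D4:**
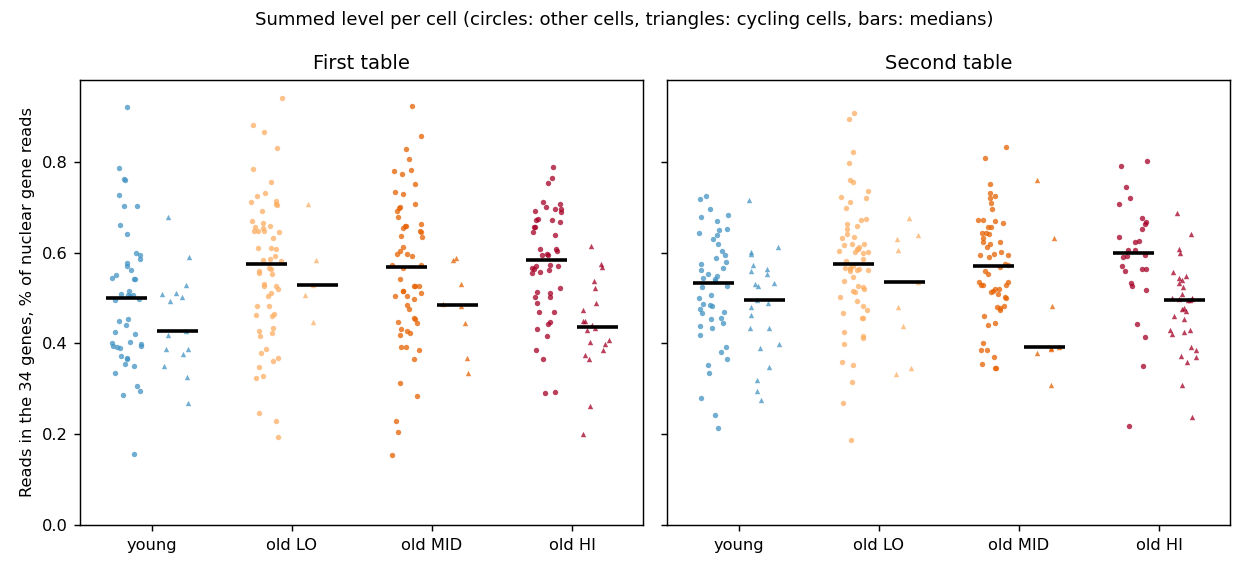
Share of nuclear gene reads in the 34 genes for each of the 533 cells, by group and table, with circles for other cells, triangles for cycling cells and bars at the medians. Cycling cells have the lower median in all 8 sums, and the gap in HI cells is 0.437% against 0.583% in the first and 0.496% against 0.6001% in the second table.

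Gene by gene, 27 of 32 members were lower in cycling than in other cells on average over the 8 sums, where 63.1% of all genes were, and their median log2 difference was -0.32, beside -0.15 over all genes. Psap, Cd63 and Cln3 were lower in all 8 sums, a pattern met by 4.07% of genes, and 0 members were higher in all 8 (5.21%). Cln3 had a mean of 66.1 CPM in cycling and 126.7 CPM in other cells, a difference of -0.97. Psap stood at 465 and 606 CPM (-0.40) and Cd63 at 184 and 250.5 CPM (-0.46). Ctsh and Ctsl differed more on average, by -2.00 and -1.78, but were lower only in 7 of the 8 sums. Single sums weighed on these means, with Ctsl at -7.05 in MID cells (8 of them cycling) and Ctsh at -5.29 in HI cells of the first table. Mean levels in cycling and other cells were 22.5 and 54.7 CPM for Ctsh and 57.2 and 129.9 CPM for Ctsl. Lamp1 (0.02) and Ctsd (-0.05) had differences near 0 and were lower in 2 and 4 of the 8 sums.

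Levels were close between the tables for most members. Between the same groups of the first and the second table the members' median log2 difference in size was 0.21, 0.26, 0.25 and 0.22 for young, LO, MID and HI, where all genes had 0.30, 0.29, 0.30 and 0.27. The genes set beside the members here were not matched for level. Over the 8 sums the highest value of a member was 1.22 times the lowest for Atp6v0d1, 1.47 times for Ctsd and 3.07 times for Neu1. Scarb2 differed most between tables in young cells (1.01), Atp6v0a1 in LO cells (-1.15) and Lamp2 in HI cells (-0.81).

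Ctss, a cathepsin of antigen presenting cells, read 13.6, 4.20, 7.92 and 5.49 CPM in young, LO, MID and HI cells of the first table and 16.01, 7.91, 8.48 and 16.4 CPM in the second, and was detected at thinned depth in 11.7% of young (6.7% to 18.6%) and 3.3% of LO cells (0.9% to 8.1%). A single cell held 68.4% of its reads in 1 sum. Gla read between 5.28 and 9.42 CPM, with 1293 reads in all cells together. Neither level allows a comparison between groups.

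A wider list of 160 lysosome genes, which holds further hydrolases, transporters, pump subunits, sorting factors and regulators, was read beside the members. Of the 149 above the filter, 4 (2.68%, background 3.65%) were higher in old cells by the 1.5-fold rule, namely Ctsw, Ostm1, Pqlc2 and Sumf1. Gm2a was the 1 gene lower (0.67%, background 3.01%), and the median was 0.01. Ctsw, a cathepsin of cytotoxic lymphocytes, was highest at 1.70 (2.22 and 1.18), with 16.2 and 33.2 CPM in young and 58.8 to 125.5 CPM in old cells. The T and NK cell list summed to 40.5 and 22.97 CPM in young and 77.5 to 149 CPM in old cells. That rise was mostly Klrb1c, with 0.72 and 2.16 CPM in young and 40.9 to 105.2 CPM in old cells. Nkg7 overlapped, at 37.9 and 18.9 CPM in young and 21.5 to 57.3 CPM in old cells, and the T cell gene Cd3e was near 0 in all sums. The part of such cells in the value of Ctsw was not tested. Pqlc2, an exporter of basic amino acids, followed at 1.53 (2.31 and 0.75), with 1.65 and 9.42 CPM in young and 7.09 to 34.6 CPM in old cells, and 77.8% of its reads in 1 sum came from a single cell. Galns, a sulfatase of keratan sulfate, stood at 1.09 but differed between tables (0.15 and 2.02).

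The lowest of the wider list in old cells were Sesn3 (-0.83), Plekhm1 (-0.75) and Gm2a (-0.73), whose product lifts gangliosides out of membranes for Hexa. Gm2a read 205 and 218 CPM in young and 91.3 to 171 CPM in old cells, with no overlap. HI against LO cells had Cd68 (0.85) and Pqlc2 (0.85) higher by the rule (1.34% of the list, background 4.49%). Ctns (-0.97) was lower by the rule (0.67%, background 3.66%). Sgsh (0.86, tables at 0.16 and 1.56) was highest, and Sesn3 (-0.73) and Clcn7 (-0.67) were next to lowest. Ctns, the cystine exporter, was also lower in MID than in LO cells, at -1.13 (-0.61 and -1.64), with LO at 20.3 and 44.6 and MID at 12.97 and 13.6 CPM. Slc29a3 and Borcs7 were higher in MID than in LO cells by the rule (1.34% of the list, background 1.48%). Ctns was the only gene of the list lower there (0.67%, background 1.79%). The transcription factors of the list had a median of -0.03 in old against young cells and none met the rule.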

How the data were processed

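The values are whole-number counts of reads per gene for 563 cells, deposited by the authors in 2 tables that each hold all 4 groups. STAR 2.7.3a and mm10 are named in the submitters' processing notes, as are featureCounts 2.0.0 from Subread and DESeq2, with no roles given, so how ambiguous reads (4.03% of all) arose is not given in the sources used here. Reads in genes made up 23.6% of all reads, and reads with no feature 33.1%. GENCODE M21 (GRCm38) gave names and positions to 45143 of 46078 entries.

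Cells were kept with at least 50000 nuclear gene reads, 1000 genes and mitochondrial reads of 20% or less, so 30 cells were dropped. Counts were summed by group and table and scaled to CPM with TMM factors (edgeR 4.0.16, R 4.3.3). Log2 differences of CPM plus 1 were taken within each table and averaged, and old is the mean of the LO, MID and HI log2 levels. Python 3.11.15 (pandas 2.3.3, NumPy 2.4.6, matplotlib 3.10.9, SciPy 1.17.1) ran the other steps. Intervals are Poisson (95%) for read sums and, after thinning to 100000 reads, exact Clopper-Pearson for detection; they cover the counting of reads and the draw of cells, not animals. No label names an animal, so each group was treated as 1 sample, its 2 sums were not taken as replicates, and no test was run. Cells were simulated with the real depths and 1 mean level per gene, so differences between tables or animals were not included. In old against young, 28% of genes set to a difference of 0.58 met the 1.5-fold rule. It was met by 88% of those set to 1, 72% of those set to -1 and 1.56% of those set to none. In HI against LO the same shares were 24%, 70%, 84% and 2.95%.

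Values in every sum are given for members past the 1.5-fold rule and for the most abundant of each class. They are also given for the highest and lowest of each class in old against young and HI against LO. Of the wider list, genes past the rule in old against young, HI against LO or MID against LO are named. The 3 highest and lowest in old against young and HI against LO are named too. These genes have log2 differences, ranges of CPM or the name alone, not values in every sum. Members and lists were chosen with earlier results of these data known. Alternatives were other scaling (DESeq2 1.42.0 size factors or none), pseudocounts, level and cell filters, a mean over cells, either table alone, and sums without cycling cells, cells with markers of other lineages or the top cell of each gene.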

Additional observations from a re-analysis of the deposited data

How the results depend on the processing

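The median of the members in old against young, 0.04, was 0.15 under a filter of 50 CPM and 25% of cells, 0.15 without cycling cells, 0.15 with LO alone as old and -0.061 without cells with markers of other lineages. The number of members higher by the 1.5-fold rule, 0, was 1 with a mean over cells (Gaa), 2 in the first table alone and 1 in the second. The number lower, 0, was 1 with no level filter (Ctss), 2 without cells with other lineage markers (Ctsh and Asah1), 2 in the first table alone, 1 in the second, 1 with MID alone and 2 with HI alone as old. In HI against LO the median of -0.07 was 0.0499 without cycling cells and -0.11 in the first table. The 2 members lower there were 1 with a pseudocount of 10 CPM, 1 under the 50 CPM filter, 1 with a mean over cells, 0 without cycling cells, 1 without cells with other lineage markers, 4 in the first and 6 in the second table; the 0 higher were 2 and 1 in the tables alone. In MID against LO, 1 member (Ctsh) was lower with a mean over cells and 1 without cells with other lineage markers, and 1 higher and 2 lower were found in the first table and 1 higher in the second. The 7 members with all old sums above young were 1 without cells with other lineage markers and 15 in the first table; the 0 below were 3, 3 in the first table and 9 in the second; and the 11 with HI below LO were 4 without cycling cells, 22 in the first table and 18 in the second. With fewer sums in a single table, separation is easier to meet; for the other settings the cause was not tested. All remaining values of these medians and counts moved by less than the spread between tables or stayed within 1.5 times, and no called value of a single member turned its sign. No paired analysis was possible because the replicate numbers in the labels count cells and tie no cell of 1 group to a cell of another; groups were matched only by table, since every difference was taken within a table. Low levels limited Ctss and Gla, and simulated differences of 0.58 were often missed.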
